A study of Mus musculus with 9 samples.

Results

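The genes described here are 44 that act in mitosis, the step of the cell cycle in which the copied chromosomes are condensed, attached to the spindle, pulled apart and shared between daughter cells. They were taken as a list of gene symbols and matched through RefSeq accessions to the probes of one-colour microarrays of mouse kidney cortex RNA, on which all 44 had at least 1 probe (58 probes in all). Of these genes 41 were well above background on 2 or more arrays and were tested among 23877 genes and unnamed transcripts. The spindle checkpoint kinase Ttk was well above background on 1 array, and the passenger complex kinase Aurkb and the kinetochore protein Cenpf on none, so these 3 genes have no result.

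The study asked what loss of Notch3, a receptor of the Notch family known from pericytes and vascular smooth muscle, does to the kidney injured by unilateral ureteral obstruction (UUO), a model in which the ureter of 1 kidney is ligated and urine backs up into it. Mice were described as 12 to 16 weeks old and matched for sex, and the obstructed kidneys were taken at day 5. There were 2 wild-type healthy arrays, 2 wild-type UUO arrays, 2 Notch3-/- healthy arrays and 3 Notch3-/- UUO arrays. Titles call the uninjured kidneys healthy, while the design text says that untouched kidneys opposite the obstructed ones were collected for comparison. Strain, the construction of the Notch3 deletion and the mouse behind each array are not given in the sources used here, so the p-values below measure the spread between these arrays, which may in part be technical.

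The tissue and genotype labels were checked first. All 10 proximal tubule markers were well above background on all 9 arrays, among them the endocytic receptor Lrp2 at log2 values of 3.93 to 6.46 over the array's 75th percentile. Notch3 stood at -0.26 and -0.50 in wild-type healthy, 0.92 and 0.68 in wild-type UUO, -4.98 and -5.39 in Notch3-/- healthy, and -4.30, -3.74 and -3.63 in Notch3-/- UUO, so it was low on every array titled Notch3-/-. One description line of the Notch3-/- healthy arrays names wild type, against their titles and this signal. Notch3-/- UUO replicates 2 and 3 stood apart: the summed signal of 8 adrenal cortex markers was 224 and 282 times the array's 75th percentile there, against 0.314 to 1.06 on the other 7 arrays. Cyp11b1, an adrenal enzyme of corticosterone synthesis, was at 4.69 and 5.15 there and at -4.13 or lower elsewhere. Xist, the RNA that silences an X chromosome in females, was well above background on those 2 arrays and on none of the other 7. The Y-linked gene Ddx3y was at -3.80 and -3.67 in those same replicates and at -0.26 to 0.42 elsewhere. The sex-linked signals thus differed within the Notch3-/- UUO group, although the mice were described as matched for sex. The counts of mitosis genes that rest on Notch3-/- UUO replicates 2 and 3 are given with and without those replicates. All wild-type arrays were scanned in 1 period and all Notch3-/- arrays in another, so genotype and scan period cannot be told apart.

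Most adult kidney cells are out of the cell cycle, and mitosis genes are read out mainly in cells that have copied their DNA. Their transcription is held down in resting cells by a repressor complex called DREAM, which sits on a short promoter sequence, the CHR element, and is switched on in late cycle by B-MYB, FOXM1 and the CCAAT-binding factor NF-Y. Cyclin A and cyclin B then activate the kinase CDK1, Polo and Aurora kinases build the spindle, the checkpoint waits for every kinetochore to be attached, and the anaphase-promoting complex with CDC20 releases the chromosomes. Injured tubules are known to re-enter the cycle to replace lost cells. In RNA of whole cortex a larger number of dividing cells and more RNA per dividing cell cannot be told apart.

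In wild-type kidneys, nearly the whole mitotic programme was higher after 5 days of obstruction, a contrast that also follows the slides. Of the 41 genes tested 37 rose and 0 fell in wild-type UUO against wild-type healthy arrays, where 14.1% of all 23877 rose and 11.8% fell (limma, Benjamini-Hochberg adjusted p under 0.05 over all of them). For 8 of the 41, well above background on neither wild-type healthy array, the healthy level is only a bound. The other 29 risen genes ranged from 1.32 for Racgap1 to 4.49 for Cdk1, or 2.49-fold to 22.5-fold. Among them Top2a, Pbk, Ndc80 and Bub1b, and Cdk1 by the probe used, were well above background on 1 of the 2 wild-type healthy arrays. Their differences from those arrays are therefore not exact. The median log2 difference over the 41 was 3.24, or 2.69 with signals raised to each array's background floor, beside 0.04 for all genes tested. Over the 27 tested genes seen above background on all 9 arrays, 24 rose and 0 fell, with a median of 2.85. Of the 19006 genes with that property 2500 rose and 2587 fell, with a median of -0.03.

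**Figure D1:**
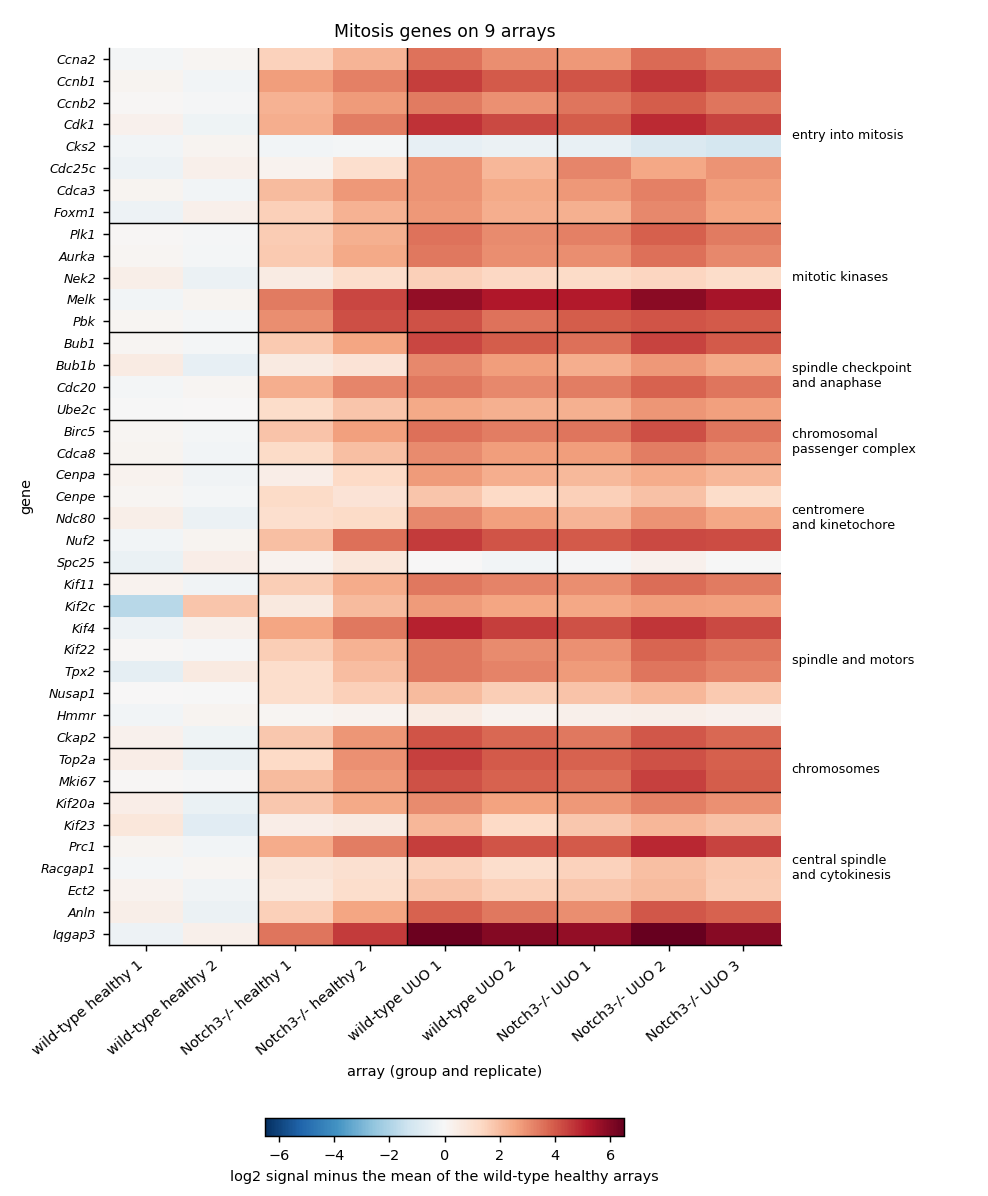
Each cell is the log2 signal of 1 gene on 1 array minus the mean of that gene over the 2 wild-type healthy arrays; rows are the 41 tested genes in 8 roles and columns the 9 arrays in 4 groups. For 8 genes the wild-type healthy signal was not well above background, so their shade is not exact. Nearly all rows darken from the wild-type healthy columns through the Notch3-/- healthy columns to the 5 UUO columns, while Cks2, Spc25 and Hmmr stay pale.

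In Notch3-/- kidneys the same obstruction gave smaller differences against uninjured kidneys of that genotype. Of the 41 genes 27 rose and 0 fell in Notch3-/- UUO against Notch3-/- healthy arrays, beside 13.3% and 13.9% of all genes, with a median log2 difference of 1.35 (all genes -0.07). Leaving aside Cdc25c, which was not well above background in the healthy arrays, the other 26 ran from 0.79 for Racgap1 to 2.03 for Iqgap3. Without Notch3-/- UUO replicates 2 and 3, 0 of the 41 passed, while 382 of all genes rose and 20 fell. In that fit, which takes the lone UUO array to vary like the other groups, 39 differences were positive (10207 of all 23877) with a median of 1.03. Ccnb1 then differed by 1.06 (adjusted p = 0.27), Cdk1 by 1.10 (adjusted p = 0.363), Plk1 by 1.31 (adjusted p = 0.184), Birc5 by 1.24 (adjusted p = 0.221) and Mki67 by 1.11 (adjusted p = 0.242). So each Notch3-/- rise and each count of rises by role given below holds with these replicates and in 0 cases without them. Leaving out Notch3-/- UUO replicate 2 or replicate 3 alone left 3 genes in each case, leaving out Notch3-/- healthy replicate 1 left 0, a fit of only these groups left 11, and a fit of the Notch3-/- arrays with the slide as a block left 4. The test of whether the change differed between genotypes called 0 of the 41.

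The promoters of these genes are printed because the genes moved together and because their known regulators read these letters. RefSeq (GRCm38.p6) gave a promoter for 37 of the 44, and none was used for Pbk, Foxm1, Aurkb, Ccna2, Tpx2, Kif20a and Cdc25c. The CHR element was searched as TTTGAA or TTCGAA and the CCAAT box as CCAAT, both on either strand, and only 1 CHR match overlapped a CCAAT match. Below, the 250 bases before the annotated start run 5′ to 3′ on the gene's strand, with CHR elements and CCAAT boxes (read as ATTGG or TTCAAA or TTCGAA on the other strand) in capitals. Cdk1 (chr10:69352913-69353162, minus strand), Top2a (chr11:99024190-99024439, minus) and Mki67 (chr7:135716380-135716629, minus) show both elements. Ccnb1 (chr13:100786487-100786736, minus) rose with CCAAT boxes and no CHR match in this window, and Cks2 (chr13:51644982-51645231, plus) has the same makeup but did not rise.
Cdk1: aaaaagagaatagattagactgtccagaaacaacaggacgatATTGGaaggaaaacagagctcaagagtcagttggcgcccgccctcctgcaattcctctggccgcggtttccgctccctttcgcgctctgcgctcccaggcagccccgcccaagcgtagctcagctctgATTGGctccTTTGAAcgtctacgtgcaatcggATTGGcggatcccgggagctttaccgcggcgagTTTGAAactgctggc
Top2a: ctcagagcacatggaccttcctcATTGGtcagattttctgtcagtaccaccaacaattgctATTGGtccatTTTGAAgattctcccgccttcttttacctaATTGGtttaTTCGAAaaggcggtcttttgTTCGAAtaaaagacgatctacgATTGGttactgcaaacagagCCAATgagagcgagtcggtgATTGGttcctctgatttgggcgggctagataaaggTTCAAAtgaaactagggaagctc
Mki67: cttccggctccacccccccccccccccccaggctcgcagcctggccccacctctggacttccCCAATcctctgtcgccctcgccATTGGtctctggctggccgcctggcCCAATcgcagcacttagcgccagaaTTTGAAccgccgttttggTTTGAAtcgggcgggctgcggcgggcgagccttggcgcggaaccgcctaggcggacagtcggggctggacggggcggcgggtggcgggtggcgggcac
Ccnb1: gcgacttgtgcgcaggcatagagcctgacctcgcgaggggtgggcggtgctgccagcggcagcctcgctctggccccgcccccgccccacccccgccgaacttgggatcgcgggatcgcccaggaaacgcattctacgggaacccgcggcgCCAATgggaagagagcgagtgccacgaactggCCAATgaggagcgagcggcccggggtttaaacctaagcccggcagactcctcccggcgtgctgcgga
Cks2: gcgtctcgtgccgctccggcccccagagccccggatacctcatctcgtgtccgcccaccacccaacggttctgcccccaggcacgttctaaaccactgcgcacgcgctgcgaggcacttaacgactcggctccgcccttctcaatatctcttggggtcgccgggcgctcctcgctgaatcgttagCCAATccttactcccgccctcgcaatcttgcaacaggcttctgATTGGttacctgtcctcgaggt
The Cdk1 stretch holds 2 CHR elements and 3 CCAAT boxes, that of Top2a 4 and 6, and that of Mki67 2 and 3. Ccnb1 and Cks2 have 2 CCAAT boxes each.

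In many other members the CHR element lies just downstream of the annotated start. The 24 bases around it are shown for 7 of them, with the element in capitals and its first base counted from 0 at the start: base 30 in the Polo kinase gene Plk1 (chr7:122159456-122159479), 32 in Aurka (chr2:172370524-172370547), 14 in Bub1 (chr2:127831831-127831854), 16 in Cenpa (chr5:30666893-30666916), 4 in Ccnb2 (chr9:70421536-70421559), 19 in Kif4 (chrX:100626075-100626098) and 5 in Racgap1 (chr15:99651637-99651660). Plk1, Cenpa and Kif4 lie on the plus strand and the other 4 on the minus strand.
Plk1: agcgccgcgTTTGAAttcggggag
Aurka: aggagaaccTTTGAAttgtaacgg
Bub1: cgcggggaaTTCGAAtcgccggcg
Cenpa: gggtgatttTTTGAActgctggcg
Ccnb2: ggcgcggtaTTTGAAtcgcggacc
Kif4: tgggatcaaTTTGAAacttggcgg
Racgap1: gtgcgtgatTTTGAAccggatctg
All 7 hold TTTGAA but for Bub1, which holds TTCGAA.

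Over the window from 250 bases before to 50 after the start, 29 of the 37 promoters (78.4%) held a CHR element, against 19.4% of all 27025 genes with a promoter. Before the start alone the count was 13 (35.1%, all genes 17.4%). Between 60 bases before and 50 after it, a window chosen after seeing the positions, the count was 26 (70.3%, all genes 5.86%). A CCAAT box lay before the start in 29 of 37 (78.4%, all genes 34.5%), and 2 or more boxes in 20 (54.1%, all genes 10.5%). The E2F site, searched as TTTCCCGC, TTTCGCGC, TTTGCCGC or TTTGGCGC, was found before the start in 1 promoter (2.7%, all genes 1.91%), that of Cdk1. The forkhead site, searched as TGTTTAC or TGTTTGC, was found in 4 (10.8%, all genes 7.22%), those of Ect2, Hmmr, Nuf2 and Top2a. Of 32 other mitosis genes with a promoter, 62.5% held a CHR element in the wider window, and of 18 cohesin and anaphase-promoting complex genes, 16.7%. The 8 members without a match were Birc5, Ccnb1, Cenpe, Cks2, Melk, Nek2, Nuf2 and Nusap1, of which 7 rose in wild-type UUO, and the non-rising Hmmr, Spc25 and Kif2c did hold the element. A match describes letters only and shows neither binding nor cause.

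**Figure D2:**
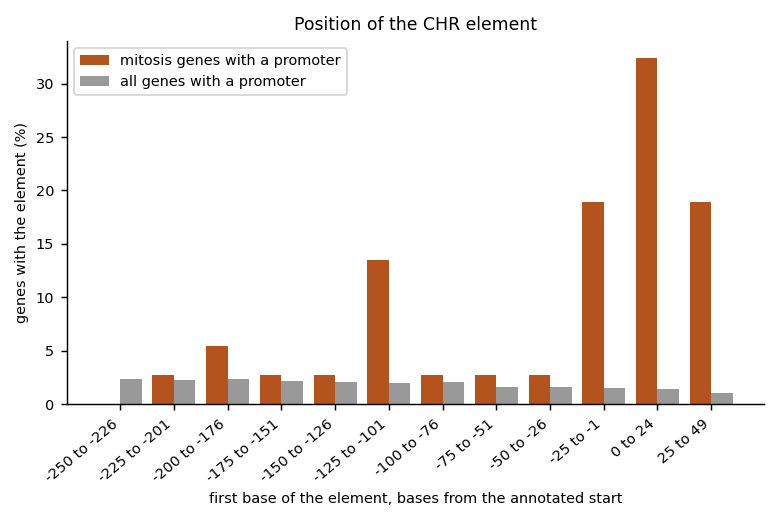
Share of genes (y axis, %) whose CHR element starts in each 25-base bin (x axis, bases from the annotated start), for the 37 mitosis genes with a promoter and for all 27025 genes with one; bars start at 0 and 1 gene can count in several bins. The mitosis genes reach 32.4% in the bin from base 0 to 24 and 18.9% in the bins on either side, where all genes lie between 1.06% and 1.49%.

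Among the genes that drive entry into mitosis, 7 of 8 rose in wild-type UUO and 5 of 8 in Notch3-/- UUO. Ccnb1, cyclin B1 and the partner that switches CDK1 on, stood at log2 values of -4.83 and -5.24 in wild-type healthy, -0.52 and -1.03 in wild-type UUO, -2.31 and -1.75 in Notch3-/- healthy, and -0.97, -0.39 and -0.81 in Notch3-/- UUO. All 5 UUO arrays lay above all 4 healthy arrays, and the Notch3-/- healthy arrays lay between. The wild-type rise was 4.26 ± 0.30 (SE; 19.2-fold, adjusted p = 0.000869) and the Notch3-/- rise 1.31 ± 0.28 (2.47-fold, adjusted p = 0.02). Dimmer probes of Ccnb1 rose by 2.24 and 3.40 in wild type. In Notch3-/- UUO they differed by 1.01 and 0.20 and did not pass (limma, adjusted p over probes 0.146 and 0.829). Cdk1, the kinase itself, was at -5.85 and -6.42 in wild-type healthy, -1.43 and -1.85 in wild-type UUO, -3.78 and -2.83 in Notch3-/- healthy, and -2.21, -1.29 and -1.72 in Notch3-/- UUO. It rose by 4.49 ± 0.42 in wild-type UUO (22.5-fold, adjusted p = 0.00149) and by 1.57 ± 0.38 in Notch3-/- UUO (adjusted p = 0.0285), and again no UUO array reached down to a healthy one. The -6.42 on wild-type healthy replicate 2 lay below that array's background floor of -5.67, so 22.5-fold is not exact. A second probe of Cdk1, near background on several arrays, gave only 0.61 for the wild-type difference and another 2.86.

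Ccna2, cyclin A2, which carries cells from DNA copying into mitosis, showed the same order at -3.64 and -3.38, 0.03 and -0.48, -1.99 and -1.27, and -0.70, 0.19 and -0.20 across the healthy and UUO arrays of wild type and then of Notch3-/-. Its rises were 3.28 ± 0.37 (adjusted p = 0.00249) and 1.40 ± 0.33 (adjusted p = 0.0267). Foxm1, a transcription factor of late-cycle genes, was at -4.99 and -4.34 in wild-type healthy, -1.84 and -2.30 in wild-type UUO, -3.14 and -2.41 in Notch3-/- healthy, and -2.37, -1.56 and -2.12 in Notch3-/- UUO. The wild-type rise of Foxm1 was 2.60 ± 0.38 (6.06-fold, adjusted p = 0.00621), whereas its Notch3-/- difference of 0.76 ± 0.35 did not pass (adjusted p = 0.151). Notch3-/- healthy replicate 2 nearly met the lowest Notch3-/- UUO array there. A second, dimmer probe of Foxm1, well above background on 3 of the 9 arrays, rose by 2.38 in wild type. In Notch3-/- UUO that probe rose by 1.35 (limma, adjusted p over probes 0.0195). Ccnb2, the second B-type cyclin, rose by 3.18 and 1.10. Cdc25c, a phosphatase that frees CDK1 from inhibition, passed in both genotypes but was well above background in neither uninjured group, so its wild-type UUO level was at least 1.25-fold and its Notch3-/- UUO level at least 1.58-fold higher, and with normexp background correction its Notch3-/- difference was -0.06 (adjusted p = 0.735). Here and for other genes such a bound divides the bright group's mean by a floor for the dim group, which on each dim array is the lowest signal called well above background, or the signal of the gene where that is higher. Cdca3, a trigger of mitotic entry, rose by 2.69 in wild type and differed by 0.51 in Notch3-/- kidneys (adjusted p = 0.228).

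The exception in this role was Cks2, a small protein that docks on cyclin-dependent kinases. It stood at -0.998 and -0.60 in wild-type healthy, -1.35 and -1.17 in wild-type UUO, -0.97 and -0.91 in Notch3-/- healthy, and -1.29, -1.74 and -1.93 in Notch3-/- UUO. Every UUO array lay below every healthy array of its genotype (35.3% of all genes did so in Notch3-/-), the opposite order from Ccnb1 and Cdk1. Neither difference passed, at -0.46 ± 0.24 (adjusted p = 0.199) in wild-type and -0.71 ± 0.22 (adjusted p = 0.0515) in Notch3-/- kidneys. Under quantile normalization, normexp background correction, the authors' value table, the stricter background filter and the background floor, and without Notch3-/- UUO replicate 1, wild-type healthy replicate 1 or wild-type healthy replicate 2, Cks2 did pass as lower in Notch3-/- UUO.

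**Figure D3:**
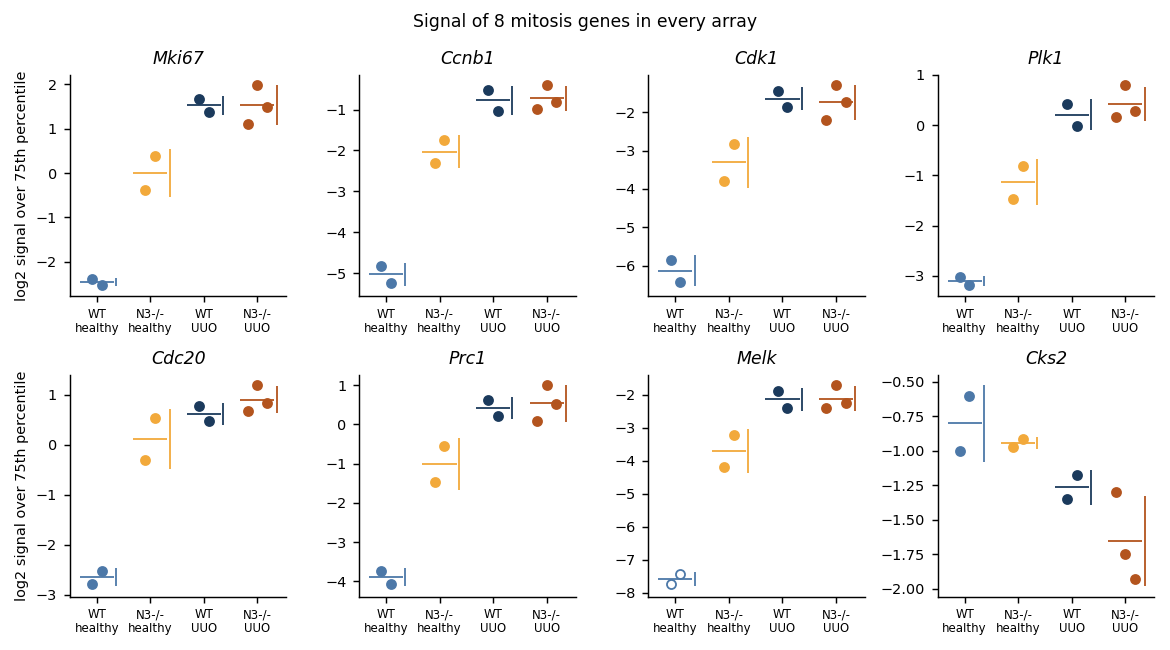
Log2 signal over the array's 75th percentile (y axis, a scale of its own in each panel) of 8 genes in the 4 groups, 1 point per array, open where no probe of the gene was well above background; horizontal lines are group means and vertical lines their SD (n = 2, 2, 2 and 3). In 7 panels the groups step up from wild-type (WT) healthy to Notch3-/- (N3-/-) healthy to UUO, while Cks2 steps down.

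All 5 mitotic kinases rose in wild-type UUO and 3 of 5 in Notch3-/- UUO. Plk1, which drives centrosome maturation and spindle assembly, was at -3.03 and -3.18 in wild-type healthy, 0.42 and -0.01 in wild-type UUO, -1.46 and -0.81 in Notch3-/- healthy, and 0.17, 0.81 and 0.28 in Notch3-/- UUO. Its rises of 3.30 ± 0.30 (9.88-fold, adjusted p = 0.00141) and 1.56 ± 0.28 (2.94-fold, adjusted p = 0.0127) separated all UUO arrays from all healthy arrays. Aurka, the Aurora kinase of the spindle poles, rose by 3.24 and 1.17. Melk, a kinase known as a proliferation marker, was not well above background in wild-type healthy arrays and reached -1.90 and -2.40 in wild-type UUO, at least 14.6-fold higher (adjusted p = 0.000869), and rose by 1.58 in Notch3-/- UUO. Pbk, a mitotic kinase of dividing cells, rose by 3.84 in wild type but differed by 0.41 in Notch3-/- kidneys (adjusted p = 0.417), where replicate 2 of the healthy group, at -1.71, was higher than all 3 UUO arrays. Nek2, which separates centrosomes, rose by 1.44 in wild type, while its Notch3-/- difference was 0.44 (adjusted p = 0.267).

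The genes of the spindle checkpoint and of anaphase rose in wild-type UUO in 4 of 4 tested and in Notch3-/- UUO in 3 of 4. Bub1, a checkpoint kinase at the kinetochore, was at -7.50 and -7.77 in wild-type healthy, neither well above background, and at -3.27 and -3.69 in wild-type UUO, at least 5.81-fold higher (adjusted p = 0.00131). In Notch3-/- arrays it was at -5.94 and -5.04 in healthy and -4.03, -3.22 and -3.62 in UUO, a rise of 1.87 ± 0.34 (adjusted p = 0.0134). Cdc20, the activator of the anaphase-promoting complex, was at -2.78 and -2.52 in wild-type healthy, 0.78 and 0.47 in wild-type UUO, -0.30 and 0.54 in Notch3-/- healthy, and 0.68, 1.20 and 0.83 in Notch3-/- UUO. Its wild-type rise was 3.27 ± 0.31 (9.68-fold, adjusted p = 0.00151), and its Notch3-/- difference of 0.79 ± 0.28 did not pass (adjusted p = 0.0799), since healthy replicate 2 stood near the UUO arrays. Ube2c, the ubiquitin-conjugating enzyme of that complex, was at -2.87 and -2.85, -0.38 and -0.55, -1.68 and -1.06, and -0.57, 0.01 and -0.18 in the same order of groups. Ube2c rose by 2.40 ± 0.26 (adjusted p = 0.00223) and 1.13 ± 0.24 (adjusted p = 0.0196), and the checkpoint protein Bub1b by 2.94 and 1.80. Ttk, with values of -7.89 to -5.87, and so almost all near background, gave no result.

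Both tested members of the chromosomal passenger complex, which corrects faulty attachments and guides cytokinesis, rose in both genotypes. Birc5, or survivin, was at -1.91 and -2.13 in wild-type healthy, 1.57 and 1.32 in wild-type UUO, -0.17 and 0.63 in Notch3-/- healthy, and 1.47, 2.15 and 1.45 in Notch3-/- UUO. Its rises were 3.47 ± 0.34 (11.1-fold, adjusted p = 0.00164) and 1.46 ± 0.31 (2.76-fold, adjusted p = 0.0195), with no overlap of healthy and UUO arrays. Cdca8, or borealin, rose by 2.91 and 1.43. Aurkb, the kinase of the complex, had a signal of -8.68 to -7.16 over the 9 arrays, on none of which it was well above background. Its signal sets no level, and with no filter on dim probes its wild-type difference was 0.71 (adjusted p = 0.218).

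At the centromere and kinetochore, where chromosomes meet spindle fibres, 4 of 5 tested genes rose in wild-type UUO and 2 of 5 in Notch3-/- UUO. Cenpa, the histone variant that marks centromeres, was at -3.96 and -4.44 in wild-type healthy, -1.45 and -1.84 in wild-type UUO, -3.79 and -2.90 in Notch3-/- healthy, and -2.09, -1.81 and -2.06 in Notch3-/- UUO. It rose by 2.56 ± 0.32 (5.88-fold, adjusted p = 0.00378) and 1.35 ± 0.29 (adjusted p = 0.0212). Ndc80, the outer kinetochore protein that grips microtubules, was at -5.99 and -6.71, -3.21 and -3.66, -5.27 and -5.11, and -4.16, -3.43 and -3.85 across the healthy and UUO arrays of wild type and then of Notch3-/-. Its rises were 2.91 ± 0.33 (adjusted p = 0.00256) and 1.38 ± 0.30 (adjusted p = 0.021). Nuf2, the partner of Ndc80 in the same complex, was at least 5.21-fold higher in wild-type UUO and differed by 1.39 in Notch3-/- UUO (adjusted p = 0.0563), and the motor Cenpe rose by 1.55 in wild type and differed by 0.45 in Notch3-/- kidneys (adjusted p = 0.237).

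Spc25, a subunit of that NDC80 complex, did not follow Ndc80 and Nuf2. It was at 1.78 and 2.63 in wild-type healthy, 2.23 and 2.05 in wild-type UUO, 2.45 and 2.95 in Notch3-/- healthy, and 2.15, 2.46 and 2.20 in Notch3-/- UUO. The groups overlapped, with differences of -0.06 ± 0.31 (95% interval -0.79 to 0.66, adjusted p = 0.902) and -0.43 ± 0.28 (adjusted p = 0.294). Cenpf, a large kinetochore protein of late cycle, was at -8.58 to -7.00 and never well above background.

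Of 8 genes for the spindle and its motors, 6 rose in wild-type UUO and 5 in Notch3-/- UUO. Kif11, the motor that pushes spindle poles apart, was at -6.92 and -7.36 in wild-type healthy, not well above background, and at -3.70 and -3.91 in wild-type UUO, at least 4.64-fold higher (adjusted p = 0.00166). In Notch3-/- arrays it was at -5.55 and -4.74 in healthy and -4.14, -3.53 and -3.76 in UUO, a rise of 1.33 ± 0.30 (adjusted p = 0.0224). Tpx2, which activates Aurora A on the spindle, was at -5.50 and -4.38 in wild-type healthy, -1.54 and -1.71 in wild-type UUO, -3.78 and -2.95 in Notch3-/- healthy, and -2.16, -1.45 and -1.72 in Notch3-/- UUO. The rises of Tpx2 were 3.32 ± 0.44 (9.97-fold, adjusted p = 0.00444) and 1.59 ± 0.40 (adjusted p = 0.0309). A second, dimmer probe of Tpx2 differed by 0.73 in wild type and did not pass (adjusted p over probes 0.331).

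The chromosome motor Kif4 was at least 5.83-fold higher in wild-type UUO and rose by 1.35 in Notch3-/- UUO. Kif22, another chromosome motor, rose by 3.24 and 1.47, and Ckap2, a spindle stabiliser, was at least 7.43-fold higher in wild-type UUO and rose by 1.43 in Notch3-/- UUO. Nusap1, which bundles spindle fibres, rose by 1.81 in wild type with a Notch3-/- difference of 0.54 (adjusted p = 0.107). Kif2c, which takes microtubules apart at centromeres, was at -8.46 and -4.84 in wild-type healthy, -3.87 and -4.09 in wild-type UUO, -6.04 and -4.58 in Notch3-/- healthy, and -4.13, -3.93 and -3.98 in Notch3-/- UUO. All UUO arrays lay above all healthy ones, but the wide gap between the wild-type healthy arrays left the difference of 2.67 ± 1.07 short of the threshold (adjusted p = 0.109). Its second probe gave 2.74 and passed (adjusted p over probes 0.0168). Hmmr, a spindle protein and also a hyaluronan receptor, was at -1.29 and -0.92 in wild-type healthy, -0.56 and -0.90 in wild-type UUO, -0.97 and -0.89 in Notch3-/- healthy, and -0.77, -0.73 and -0.83 in Notch3-/- UUO. Its differences were 0.38 ± 0.18 (95% interval -0.04 to 0.80, adjusted p = 0.16) and 0.16 ± 0.16 (adjusted p = 0.508).

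The chromosome proteins gave large rises. Mki67, the Ki-67 antigen that coats mitotic chromosomes and is the usual stain for dividing cells, was at -2.39 and -2.52 in wild-type healthy, 1.68 and 1.38 in wild-type UUO, -0.38 and 0.38 in Notch3-/- healthy, and 1.12, 1.996 and 1.496 in Notch3-/- UUO. It rose by 3.99 ± 0.35 in wild-type (15.9-fold, adjusted p = 0.00122) and by 1.53 ± 0.32 in Notch3-/- kidneys (2.9-fold, adjusted p = 0.0187). Top2a, the topoisomerase that untangles sister chromosomes, was at -5.73 and -6.56, -1.68 and -2.17, -4.83 and -3.15, and -2.32, -2.00 and -2.25 across the healthy and UUO arrays of wild type and then of Notch3-/-. Its rises were 4.22 ± 0.54 (18.6-fold, adjusted p = 0.00406) and 1.80 ± 0.50 (adjusted p = 0.0383), and the Notch3-/- healthy arrays were 1 high and 1 low. The -6.56 on wild-type healthy replicate 2 lay below that array's background floor of -5.67, so 18.6-fold is not exact.

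For the central spindle and cytokinesis, the step that cleaves the cell, 7 of 7 genes rose in wild-type UUO and 5 of 7 in Notch3-/- UUO. Prc1, which cross-links the central spindle, was at -3.72 and -4.06 in wild-type healthy, 0.62 and 0.22 in wild-type UUO, -1.48 and -0.55 in Notch3-/- healthy, and 0.07, 1.004 and 0.52 in Notch3-/- UUO. It rose by 4.31 ± 0.40 (19.8-fold, adjusted p = 0.00144) and 1.54 ± 0.36 (adjusted p = 0.026). Anln, the scaffold of the contractile ring, was at -3.94 and -4.66, -0.44 and -0.87, -2.75 and -1.74, and -1.26, -0.25 and -0.47 in the same order of groups, with rises of 3.65 ± 0.47 (adjusted p = 0.004) and 1.59 ± 0.43 (adjusted p = 0.0363). In both genes every UUO array lay above every healthy one.

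Kif20a, a central spindle motor, was at -3.64 and -4.50 in wild-type healthy, -1.004 and -1.44 in wild-type UUO, -2.33 and -1.60 in Notch3-/- healthy, and -1.28, -0.78 and -1.11 in Notch3-/- UUO. It rose by 2.85 ± 0.37 in wild type (7.21-fold, adjusted p = 0.00417), and its Notch3-/- difference of 0.91 ± 0.34 did not pass (adjusted p = 0.0873). The GTPase regulators Racgap1 and Ect2, which position the cleavage furrow, had small rises of 1.32 and 1.71 in wild type and 0.79 and 0.94 in Notch3-/- kidneys. Kif23, the motor bound to Racgap1, rose by 1.71 in wild type and differed by 1.42 in Notch3-/- kidneys (adjusted p = 0.0534). Iqgap3, an actin scaffold of dividing cells, was not well above background in wild-type healthy arrays, was at least 15.6-fold higher in wild-type UUO and rose by 2.03 in Notch3-/- UUO.

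In obstructed kidneys no difference between the genotypes passed the test. Between Notch3-/- UUO and wild-type UUO, 0 of the 41 rose and 0 fell (limma, adjusted p from 0.356 to 0.997), where 0.0796% of all genes were higher and 0.205% lower. At an unadjusted p under 0.05 (limma), 0 of the 41 differed, beside 1757 higher and 2247 lower of all 23877. By brightest probe, differences ran from -0.41 for Kif4 to 0.44 for Ccnb2, with 22 positive, 19 negative and a median of 0.01. The 13 other probes of these genes that passed the background filter ran from -1.20 to 0.23. Of those probes 5 were positive, and 0 were called higher or lower. For Mki67 the difference was 0.01 with a 95% interval of -0.74 to 0.76, and for Plk1 0.22 with an interval of -0.44 to 0.87. For 26 of the 41 the interval lay within a log2 difference of 1 either way, and for 15, Kif2c (-2.35 to 2.28) being the widest, it reached further, so larger differences in those were not excluded. In data simulated for this comparison 28.4% of log2 differences of 1 and 68.7% of those of 2 were recovered. Without Notch3-/- UUO replicates 2 and 3, 0 of the 41 passed and the median was -0.21.

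The uninjured kidneys differed. In Notch3-/- healthy against wild-type healthy arrays 10 of the 41 rose and 0 fell, where 0.239% of all genes were higher and 0.272% lower. At an unadjusted p under 0.05 (limma), 34 of the 41 were higher and 0 lower, beside 2435 and 1794 of all 23877. The 10 were the cyclins Ccnb1 (3.01 ± 0.30, 8.04-fold) and Ccnb2 (2.52 ± 0.26), the anaphase activator Cdc20 (2.77 ± 0.31), the entry factor Cdca3 (2.43 ± 0.31), the kinases Melk and Pbk (3.60 ± 0.38), the motor Kif4, the chromosome protein Mki67 (2.46 ± 0.35, 5.51-fold) and the cytokinesis genes Prc1 (2.88 ± 0.40) and Iqgap3. Their adjusted p-values lay between 0.0248 and 0.046. Melk, Iqgap3 and Kif4 were well above background on neither wild-type healthy array and so were at least 4.94-fold, 3.48-fold and 1.72-fold higher. The median difference over the 41 was 1.96, or 1.58 with signals raised to the background floor (all genes 0.06), and 40 were positive (13252 of all 23877), with Cks2 at -0.14. In 35 of the 41 both Notch3-/- healthy arrays lay above both wild-type healthy arrays (27.9% of all genes).

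Several defining genes fell just short of the threshold in uninjured kidneys: Cdk1 differed by 2.83 ± 0.42 (adjusted p = 0.0541), Birc5 by 2.25 ± 0.34 (adjusted p = 0.0541), Plk1 by 1.96 ± 0.30 (adjusted p = 0.0575) and Aurka by 2.08 ± 0.32 (adjusted p = 0.0575). Over the 27 genes seen above background on all 9 arrays, 6 rose and 0 fell, with a median of 1.88. Of the 19006 genes with that property 25 rose and 38 fell, with a median of 0.07. The calls depended on single arrays: 0 of the 41 passed without Notch3-/- healthy replicate 2, without wild-type UUO replicate 1, without wild-type UUO replicate 2, without Notch3-/- UUO replicate 3 or without Notch3-/- UUO replicates 2 and 3, 1 passed without Notch3-/- UUO replicate 2, 2 without wild-type healthy replicate 2 and 4 without wild-type healthy replicate 1. With the slide as a random block, or with only the healthy arrays fitted, 0 passed, 6 with the authors' value table and 5 with the background floor, while the median stayed between 1.06 and 2.29 under every alternative. As above, genotype cannot be told apart from scan period or slide here, since no slide held both genotypes.

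**Figure D4:**
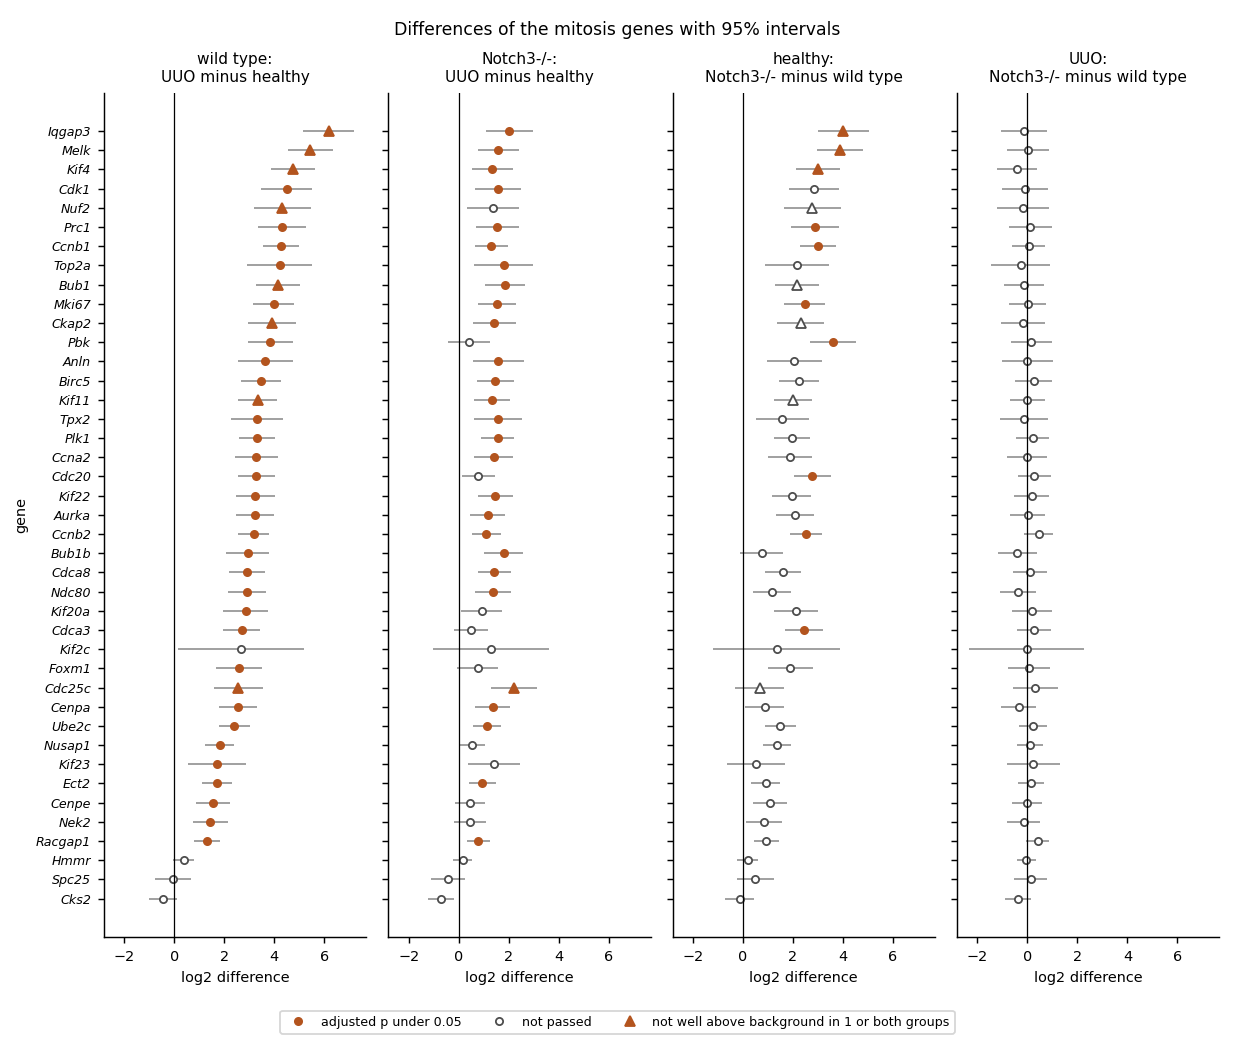
Log2 differences of the 41 genes (points) with 95% intervals (lines) from limma for 4 comparisons on a common x axis, ordered by the wild-type difference; filled symbols passed an adjusted p of 0.05, and triangles mark genes not well above background in 1 or both of the groups, whose position is not exact. Among the circles the wild-type column reaches 4.49 and the Notch3-/- column 2.03, the healthy column has 40 of 41 symbols to the right of 0 and the UUO column lies around 0.

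Taken with its sign, the change from healthy to UUO was lower in Notch3-/- than in wild-type kidneys for all 41 genes (13668 of all 23877). The test of that difference called none. For Cks2 (-0.46 in wild type, -0.71 in Notch3-/-) and Spc25 (-0.06 and -0.43) the lower value is the larger change, downward. Over the 33 genes measured above background in all 4 groups the difference of the changes ran from -3.44 for Pbk to -0.22 for Hmmr. Over the 41 the median was -1.89, or -1.49 with signals raised to the background floor (all genes -0.07). At an unadjusted p under 0.05 (limma), 32 of the 41 were lower and 0 higher, beside 999 and 705 of all 23877. The smallest adjusted p was 0.252 (limma), and 0 of all 23877 genes passed either way. Over the alternatives the smallest adjusted p lay between 0.0898 and 0.778. Without Notch3-/- UUO replicates 2 and 3 the median was -2.22 and 1 of the 41 differences was positive (10705 of all 23877). In data simulated for this test, 32.8% of genes with a true log2 difference of 2 and 75.8% of those with 3 were recovered. This contrast holds the same healthy arrays as the comparison of uninjured kidneys, so the results are not independent.

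The arrays themselves line up in a fixed order over the genes. In 34 of the 41 all 5 UUO arrays were above all 4 healthy arrays (15.8% of all genes), and in 31 the Notch3-/- healthy arrays lay above both wild-type healthy and below all UUO arrays (4.59% of all genes). Without Notch3-/- UUO replicates 2 and 3 these counts were 35 (16.9% of all genes) and 32 (4.8%). Within groups the genes also moved as a block: Notch3-/- healthy replicate 2 was above replicate 1 in 40 of 41 (44.1% of all genes), wild-type UUO replicate 1 above replicate 2 in 40 (50.4%), and Notch3-/- UUO replicate 2 was the highest of its group in 39 (29.6%) and replicate 1 the lowest in 32 (41.2%). Genes that vary together in this way are not independent measurements, so a count of 37 or 10 called genes rests on the same few arrays.

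Markers of other cell types also moved with the groups. Of 9 macrophage and monocyte markers tested, 8 rose in wild-type UUO and 8 in Notch3-/- UUO, with median log2 differences of 3.16 and 3.42, beside 3.24 and 1.35 for the mitosis genes. Their summed signal, in which the bright Itgam counts for much and went the other way (-0.29, adjusted p = 0.366, and -0.92, adjusted p = 0.0203), was 30.8 and 32.1 times the array's 75th percentile in wild-type healthy, 50.6 and 49.4 in wild-type UUO, 40.4 and 31.1 in Notch3-/- healthy, and 45.4 to 49.0 in Notch3-/- UUO. Fibroblast and pericyte markers rose in 5 and 8 of 8, with medians of 2.35 and 2.62 and sums of 22.0 and 12.6, 106 and 86.5, 6.05 and 10.1, and 44.3 to 65.8 in the same order. Of 10 lymphocyte markers, 5 to 10 of them well above background per array, 2 and 3 rose, with medians of 0.76 and 1.26, among them the T cell kinase Lck at 1.57 and 2.56, and their sums lay between 3.18 and 7.25. Proximal tubule markers fell in 6 and 10 of 10, with sums of 1104 and 1494, 504 and 660, 1471 and 1333, and 355 to 785.

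In uninjured kidneys the endothelial markers summed to 14.99 and 14.82 in wild type and 10.73 and 9.70 in Notch3-/-. All 6 were lower in Notch3-/-, 5 of them without overlap, and 0 passed (limma, smallest adjusted p = 0.0503, 5 at an unadjusted p under 0.05). All 8 fibroblast and pericyte markers were lower too, 6 without overlap, and 0 passed (limma, smallest adjusted p = 0.109, 5 at an unadjusted p under 0.05). Median differences were -1.08 and -1.42. Of all 23877 genes, 4160 were lower without overlap and 1794 lower at an unadjusted p under 0.05. Markers of the loop and distal nephron summed to 172 and 182 in wild-type healthy and 268 and 312 in Notch3-/- healthy, and 0 of 8 passed there (1 at an unadjusted p under 0.05). The bright Umod counts for much in that sum, at log2 values of 6.72 and 6.83 in wild type and 7.57 and 7.87 in Notch3-/-. Median log2 signals of the list were 2.925 and 2.414 against 2.391 and 2.535, with 6 markers higher and 2 lower in Notch3-/-. Some markers followed the order of the arrays within groups for some arrays and not for others. Notch3-/- healthy replicate 2, the higher array for the mitosis genes, was the higher one for 8 of 9 macrophage, 8 of 8 fibroblast and 6 of 7 adipocyte markers. Notch3-/- UUO replicate 1, the lowest of its group for most mitosis genes, was the lowest for 7 of 8 fibroblast and 7 of 7 adipocyte markers. It was the lowest for 4 of 9 macrophage markers. Notch3-/- UUO replicate 2 was the highest of its group for 39 of 41 mitosis genes. Among the markers it was the highest for 1 of 9 macrophage, 3 of 8 fibroblast and 1 of 7 adipocyte genes. The adipocyte markers summed to 108 and 12.2 in wild-type healthy, 39.0 and 34.3 in wild-type UUO, 2.78 and 96.5 in Notch3-/- healthy, and 6.10, 46.1 and 69.2 in Notch3-/- UUO. The part of any of these cell types in the results was not tested.

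Other genes of the cycle show how far the pattern reaches. Among 40 tested further mitosis genes 28 rose and 1 fell in wild-type UUO and 23 rose in Notch3-/- UUO, and without replicates 2 and 3 of Notch3-/- UUO 0 genes of this list or of the other lists below rose there. None of the 4 genes named here was well above background on either wild-type healthy array, so their wild-type rises are bounds. The kinetochore gene Ska1 was at least 9.66-fold higher in wild-type UUO, Gtse1 at least 7.32-fold and the protease Espl1, or separase, at least 7.65-fold, and Gtse1 and Espl1 rose by 1.64 and 1.89 in Notch3-/- UUO. The kinetochore scaffold Knl1, not well above background in Notch3-/- healthy arrays as well, was at least 2.3-fold and 2.8-fold higher. Of 8 condensin genes, which fold chromosomes, 6 and 5 rose, led by Ncaph (3.23 and 1.76). Of 5 cohesin genes, which hold sister chromosomes together, 0 changed in either genotype. Of 16 genes of the anaphase-promoting complex and its regulators 2 rose and 2 fell in wild-type kidneys (all genes 14.1% and 11.8%). In Notch3-/- kidneys 0 of the 16 rose and 2 fell (all genes 13.3% and 13.9%). The core subunit Cdc27 was lower by -0.79 and -0.74, and the complex's inhibitor Fbxo5 rose by 1.08 in wild type.

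Genes for DNA copying had smaller median differences. Of 22 S-phase genes 18 rose in wild-type and 9 in Notch3-/- UUO with median differences of 1.37 and 0.70, led by Uhrf1, a reader of copied DNA (3.78 and 1.75), and the helicase subunit Mcm5 (2.41 and 1.02). Pcna, the sliding clamp, rose by 0.73 in wild type (adjusted p = 0.0161) and differed by 0.37 in Notch3-/- (adjusted p = 0.0846). Among 10 G1 genes 5 and 4 rose, with Ccne1, cyclin E1, at 2.97 and 2.22, while Ccnd1, cyclin D1, differed by -0.64 (adjusted p = 0.189) and -0.91 (adjusted p = 0.0621).

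The regulators and brakes changed in part. Of 23 genes of the DREAM, MuvB, E2F and NF-Y groups 4 rose and 1 fell in wild-type UUO (all genes 14.1% and 11.8%). In Notch3-/- UUO 3 of the 23 rose and 1 fell (all genes 13.3% and 13.9%). E2f8, a repressor of late E2F genes, was at least 14.2-fold higher in wild-type UUO, since it was not well above background in wild-type healthy arrays, and rose by 2.45 in Notch3-/- UUO. Mybl2, or B-MYB, rose by 1.18 and 1.09, and the pocket protein Rbl2, the p130 subunit of DREAM, was lower by -1.15 (adjusted p = 0.00302) and -0.79 (adjusted p = 0.00868). Of 15 brakes 4 and 6 rose: Cdkn1a, the CDK inhibitor p21, rose by 2.36 and 1.44, and Pkmyt1, which phosphorylates CDK1 to hold it off, by 2.54 and 1.67. Cdkn2a, well above background on none of the healthy arrays, was at least 4.63-fold and 4.14-fold higher. In UUO kidneys 0 genes of these 8 lists differed between genotypes. In uninjured kidneys 4 of the further mitosis genes and the S-phase gene Uhrf1 (2.02) passed as higher in Notch3-/-. Psrc1, Ska1 and Gtse1, not well above background in wild-type healthy arrays, were at least 8.53-fold, 2.96-fold and 3.05-fold higher, while Knl1, the fourth, was well above background on none of the healthy arrays and so has no difference to give. There 0 of the condensin, cohesin, anaphase-promoting complex, regulator, brake and G1 genes passed. Cdkn1a differed by 1.76 there (adjusted p = 0.0734) and Mybl2 by 0.05 (adjusted p = 0.94).

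**Figure D5:**
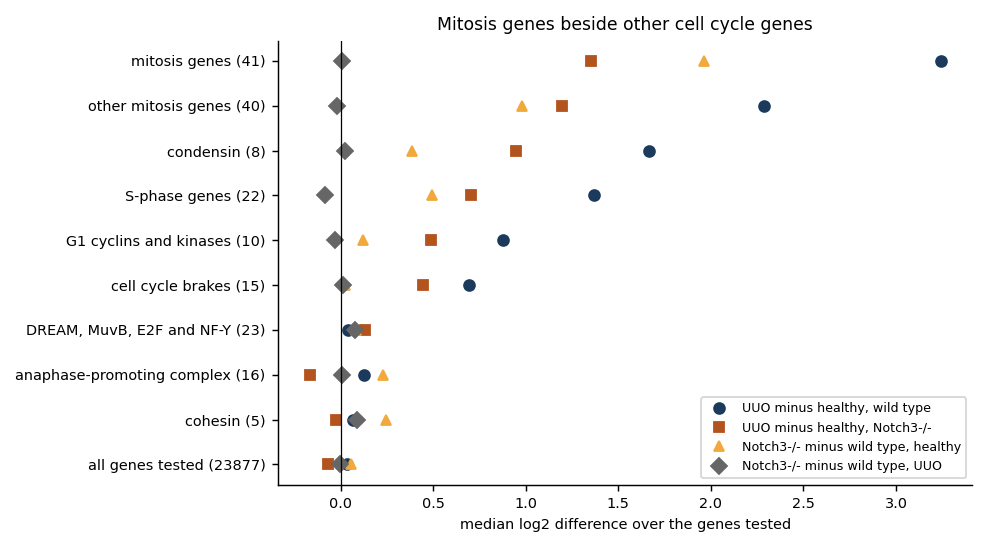
Median log2 difference over the tested genes of each list (number in brackets) for 4 comparisons; no error bars are drawn because genes of a list are not replicates. The mitosis genes lie farthest to the right, at 3.24, 1.35 and 1.96, and cohesin, anaphase-promoting complex and regulator lists lie near all genes tested.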

How the data were processed

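RNA of mouse kidney cortex was hybridised with Cy3 to 9 one-colour Agilent arrays. The deposited intensity values are processed signals, background-subtracted and detrended by Feature Extraction 10.7.3.1 per the file headers (10.5 per the submitters' processing notes). A deposited log2 value table of the same arrays, with a normalization between arrays that the sources used here do not give, served as an alternative: per array it correlated with the scanner signals at 0.971 to 0.986, and its column medians were 7.02 to 7.05.

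Outlier spots (117 to 204 per array) were left out, log2 signal was taken minus each array's 75th percentile, and probes well above background on at least 2 arrays were kept (29333). The brightest probe stood for a gene. Of 13 other probes of the mitosis genes that passed the filter, 11 were called higher in wild-type UUO and 7 in Notch3-/- UUO, and 0 lower. Of 39429 probes, 27234 took 1 of 20659 symbols through RefSeq accessions. Between 65.3% and 73.2% of spots were well above background and 0 were saturated, and the number of arrays limits the precision. A limma model (version 3.58.1, R 4.3.3) with 1 mean per group took in all 9 arrays and left 5 residual degrees of freedom. Levels were not compared between probes, and cross-hybridisation was not tested. In simulated data with 23877 genes, the fit recovered 64.2% of log2 changes of 2 in wild-type UUO against healthy. It recovered 70.1% in Notch3-/- UUO against healthy, 68.7% between UUO groups and 59.7% between healthy groups. Each simulation changed 66 or 67 genes at each log2 size of 1, 2 and 3, with noise independent between genes. In UUO against healthy far more genes changed, and genes moved together, so these rates may not carry over.

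The 44 genes, the roles and the other lists were chosen with earlier results of these data known. Values on every array are given for 20 genes chosen for their role and for each gene that differed from most of its role. Of other lists, up to 4 genes with the smallest adjusted p are named, with Notch3, Cdkn1a, Pcna, Mybl2, Ccnd1, Xist, Ddx3y and Cyp11b1. Alternatives covered normalization, background, filter, probe choice, blocks, groups fitted and each array left out. Promoters came from RefSeq tables (GRCm38.p6), with positions counted from 0 at the start. The values of some list genes and some sequences are not reported here.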

Additional observations from a re-analysis of the deposited data

How the results depend on the processing

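In wild-type UUO against healthy, 30 to 37 genes rose when 1 array was left out (30 without wild-type UUO replicate 1) and 35 to 38 under the other alternatives, 0 fell, and the median stayed between 1.88 and 3.41. In Notch3-/- UUO against healthy, leaving out 1 array gave 0 to 28 risen genes and 0 to 1 fallen, the fit of only these groups gave 11, slide as a fixed block 4 and leaving out Notch3-/- UUO replicates 2 and 3 gave 0. Cks2 was the 1 gene that fell under quantile normalization, normexp, the authors' value table, the filter for every array of a group and, chosen after seeing the data, the background floor. Cdc25c turned to -0.063 with normexp. Between healthy kidneys leaving out 1 array gave 0 to 8 risen genes, 6 genes rose with the authors' values and 5 with the floor, and slide as a random block, the fit of only these groups and leaving out Notch3-/- UUO replicates 2 and 3 gave 0. Between UUO kidneys and for the difference of the changes, 0 passed under every alternative run. For single genes no value other than that of Cdc25c reversed under the alternatives run.

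With the replicate number as a block 35 genes rose in wild-type UUO, 0 in Notch3-/- UUO and 0 between healthy kidneys. Same-numbered healthy and UUO arrays deviated together at correlations of 0.0966 in wild type and 0.157 and 0.0701 in Notch3-/-. In a group of 2 arrays the deviations mirror each other, so these values cannot decide whether the numbers pair the arrays. Between the healthy groups the correlation was -0.113, and a crossed block, chosen after seeing the data, gave 0 risen genes.

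Normexp moved the median of all genes from -0.07 to -0.23 in the Notch3-/- response, with 2365 genes higher and 6019 lower against 3171 and 3322, and from 0.06 to 0.18 between healthy kidneys, with 55 higher and 38 lower against 57 and 65. Between UUO kidneys the split of all genes was 71 higher and 69 lower with quantile normalization, 157 and 140 with the authors' table and 101 and 110 with normexp, against 19 and 49. Signal over background limits Cdc25c, Melk, Bub1, Nuf2, Kif11, Kif4, Ckap2 and Iqgap3 to bounds in wild-type healthy kidney.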
